A study of Mus musculus with 21 samples.

Results

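The SLC25 genes encode the mitochondrial carrier family, the proteins that move nucleotides, phosphate, carboxylates, amino acids and cofactors through the inner mitochondrial membrane. The members described here are all genes of the deposited expression table whose symbol begins with Slc25a followed by a digit. The rule found 40 genes of 13202 in the table, and it used no measured value. All 40 were among the 12630 genes tested, which are those with 1 RPKM or more (reads in a gene scaled by its length in kilobases and by library size) in at least 3 libraries. Slc25a34 reached 1 RPKM in 3 libraries only, those of OT-I acute, so its difference from the other groups follows in part from the filter.

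Carriers of this family share a fold of repeated paired helices, and most exchange a solute of the mitochondrial matrix for one of the cytosol. They thereby couple ATP made by respiration, citrate for lipid and acetyl-CoA synthesis, the malate-aspartate shuttle and mitochondrial folate, NAD and glutathione pools to the rest of the cell. T cells that divide after stimulation through the T cell receptor draw on several of these routes, and loss of mitochondrial fitness has been studied in T cells under chronic stimulation.

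RNA was sequenced from mouse CD8+ T cell cultures in 7 groups of 3 libraries, all harvested on day 8 after a first stimulation of 48 h. Polyclonal acute and polyclonal chronic cells were C57BL/6 cells stimulated first with plate-bound anti-CD3 and anti-CD28. The acute cells then received no further receptor stimulus, and the chronic cells received plate-bound anti-CD3 anew every 48 h. OT-I acute and OT-I chronic cells carried the transgenic OT-I receptor for an ovalbumin peptide and were first stimulated with that peptide. Both were then cultured with B16-F10 cells, a mouse melanoma line pretreated with 1 ng/mL interferon-γ, and the chronic group alone received the peptide again every 48 h. Vehicle acute, vehicle chronic and NAC chronic cells were a further set of C57BL/6 cells with the same plate-bound stimuli. NAC chronic cells received N-acetylcysteine (NAC) at 10 mM, an antioxidant that also supplies cysteine, from 48 h onwards. The stated medium held interleukin-2 and the thiol reductant beta-mercaptoethanol, so the controls of the NAC comparison also had a reductant in their medium. Polyclonal cells came from spleen and inguinal lymph nodes by a kit that removes unwanted cells rather than binding CD8+ cells, the isolation of OT-I cells is not described in the labels, and no label states the age of the mice. The labels do not say that libraries of a group came from separate cultures or animals. The spread behind each p-value is therefore that between these libraries, and it may be technical. For each gene it was pooled over all 7 groups, so libraries outside a comparison also enter its p-value. The groups were not equally tight. On a log scale libraries of a group correlated at as low as 0.985 in polyclonal acute cells, and at 0.998 in the vehicle and NAC groups.

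Libraries held 5347355 to 25218890 reads in genes. Members had 0 to 13449 reads in a library, and 2 members, Slc25a34 and Slc25a43, had fewer than 10 reads in at least 1 library. The label CD8+ T cell was checked against marker genes. Cd8a, a chain of the CD8 coreceptor, was at 101 ± 0.556 RPKM (SD, n = 3) in polyclonal acute and at 8.48 ± 0.165 RPKM in polyclonal chronic libraries, while it was between 87.1 and 145 RPKM on average in the other groups. The summed level of the 2 CD4 T cell markers was 75.9 to 83.9 RPKM in polyclonal acute and 343 to 365 RPKM in polyclonal chronic libraries, and that of the 5 B cell markers was 3.20 to 12.3 and 198 to 221 RPKM. The polyclonal chronic libraries therefore went against their label. The 8 melanocyte markers summed to 7778 to 8070 RPKM in OT-I acute and 4491 to 4605 RPKM in OT-I chronic libraries, and to at most 75.0 RPKM elsewhere. Melanocyte transcripts were thus present in both OT-I groups, and their sum was higher in the acute one. Of the 8 markers, 6 were called lower in OT-I chronic cells, and Mlana and Gpnmb were not called. The B cell markers summed to 4.65 to 9.71 RPKM in OT-I acute and 34.9 to 38.3 RPKM in OT-I chronic libraries, and the 2 NK cell markers to 1.64 to 3.32 and 10.7 to 12.6 RPKM, so both were higher in the chronic group. CD4 T cell markers summed to 17.0 to 19.3 RPKM in vehicle acute, 2.66 to 3.01 RPKM in vehicle chronic and 49.1 to 50.9 RPKM in NAC chronic libraries, and the 3 myeloid markers in the table to 8.92 to 9.61 and 30.7 to 32.2 RPKM. Of the 7 erythroid markers asked for, only Alas2 was in the table, at 0.0264 to 3.31 RPKM. In polyclonal acute 2, polyclonal chronic 2 and OT-I acute 3 the 572 genes under the filter were raised, at a mean of 1.31, 0.781 and 0.844 RPKM against 0.138 to 0.448 RPKM in the other libraries of those groups. In bulk RNA, fewer cells of a type and less RNA per cell cannot be told apart.

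Promoter sequence was available for 31 of the 40 members in a RefSeq table of mouse build GRCm38.p6. The 250 bases before the start are shown for 4 members on which the results below turn: Slc25a1, Slc25a13 and Slc25a33, which were among the members with the largest rises in polyclonal chronic cells, and Slc25a42, which had one of the largest rises under NAC. Each is on the minus strand of the chromosome and is written 5′ to 3′ along the gene. In the first 3 sequences the capitals mark the E-box CACGTG, the site read by MYC and USF type factors, and in the fourth they mark each CCAAT box (CCAAT on either strand).
Slc25a1, chr16:17928220-17928469: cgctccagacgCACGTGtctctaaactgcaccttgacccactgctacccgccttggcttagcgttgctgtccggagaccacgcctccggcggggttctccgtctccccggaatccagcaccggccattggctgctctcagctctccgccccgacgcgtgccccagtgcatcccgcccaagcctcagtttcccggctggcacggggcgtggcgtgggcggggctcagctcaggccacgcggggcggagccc
Slc25a13, chr6:6217174-6217423: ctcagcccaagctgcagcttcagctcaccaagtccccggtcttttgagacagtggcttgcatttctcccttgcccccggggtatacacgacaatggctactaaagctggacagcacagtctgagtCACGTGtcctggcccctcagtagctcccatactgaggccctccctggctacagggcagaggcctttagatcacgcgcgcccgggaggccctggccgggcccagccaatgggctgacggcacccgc
Slc25a33, chr4:149774268-149774517: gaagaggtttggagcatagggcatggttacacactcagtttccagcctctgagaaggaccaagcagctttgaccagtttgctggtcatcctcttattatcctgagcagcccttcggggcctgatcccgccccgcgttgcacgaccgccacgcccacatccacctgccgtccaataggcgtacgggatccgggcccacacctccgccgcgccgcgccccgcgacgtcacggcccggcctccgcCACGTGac
Slc25a42, chr8:70212282-70212531: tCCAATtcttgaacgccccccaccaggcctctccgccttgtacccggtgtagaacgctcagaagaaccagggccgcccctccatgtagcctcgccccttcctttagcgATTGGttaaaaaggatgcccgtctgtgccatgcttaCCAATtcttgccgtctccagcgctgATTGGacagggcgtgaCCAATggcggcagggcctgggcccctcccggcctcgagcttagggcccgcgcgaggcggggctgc
The E-box began 239 bases before the start in Slc25a1, 125 bases before it in Slc25a13 and 8 bases before it in Slc25a33. In Slc25a13 it overlaps a match to the AP-1 motif TGANTCA. Over all 250-base windows of the table, searched on both strands, CACGTG was in 6.02% of 32851 windows and in 7 of the 40 windows of members (17.5%). The E-box was also in windows of Slc25a14, Slc25a15 and Slc25a36, of which the first was called in none of the chronic comparisons and the second was not called in polyclonal cells. Slc25a36 was called higher in polyclonal chronic cells. Slc25a43 (log2 change of 0.92) and Slc25a12 (0.60) were called higher there as well, and their windows held no E-box. The same holds for Slc25a22, Slc25a17, Slc25a39, Slc25a25, Slc25a10 and Slc25a20. An E-box was thus not a common trait of the members that rose. The window of Slc25a42 held 5 CCAAT boxes, and CCAAT was in 33.9% of all windows and in 20 of the 40 windows of members. The antioxidant response motif TGACNNNGC was in 10.2% of all windows and 22.5% of those of members, but not in that of Slc25a42. The 40 windows came from 31 members, and windows of the same gene can overlap, so a site can count more than once. This was so for the E-box of Slc25a14, for the antioxidant response motif of Slc25a14 and Slc25a23, and for the CCAAT box of Slc25a23. All windows of the table were counted in the same way. These matches describe letters in a window and not binding.

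Members spanned the range of expression of the table. The median of their mean RPKM over groups was 13.4, against 12.1 for all genes tested. The phosphate carrier Slc25a3 and the adenine nucleotide translocases Slc25a4 and Slc25a5 lay at 100 RPKM or more, 20 members at 10 to 100, 16 members at 1 to 10, and Slc25a34 below 1 RPKM. These 3 abundant genes held 61.3% ± 1.41 (SD, n = 3) of the summed RPKM of the family in polyclonal acute libraries and 48.7% ± 1.78 in OT-I acute libraries. The sum over all 40 members was lowest in OT-I acute, at 1278 ± 71.2 RPKM, and highest in vehicle acute, at 1579 ± 18.7 RPKM. The ratio of the highest to the lowest group mean had a median of 1.99 over members with all group means above 0, and of 2.44 over all such genes tested.

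**Figure D1:**
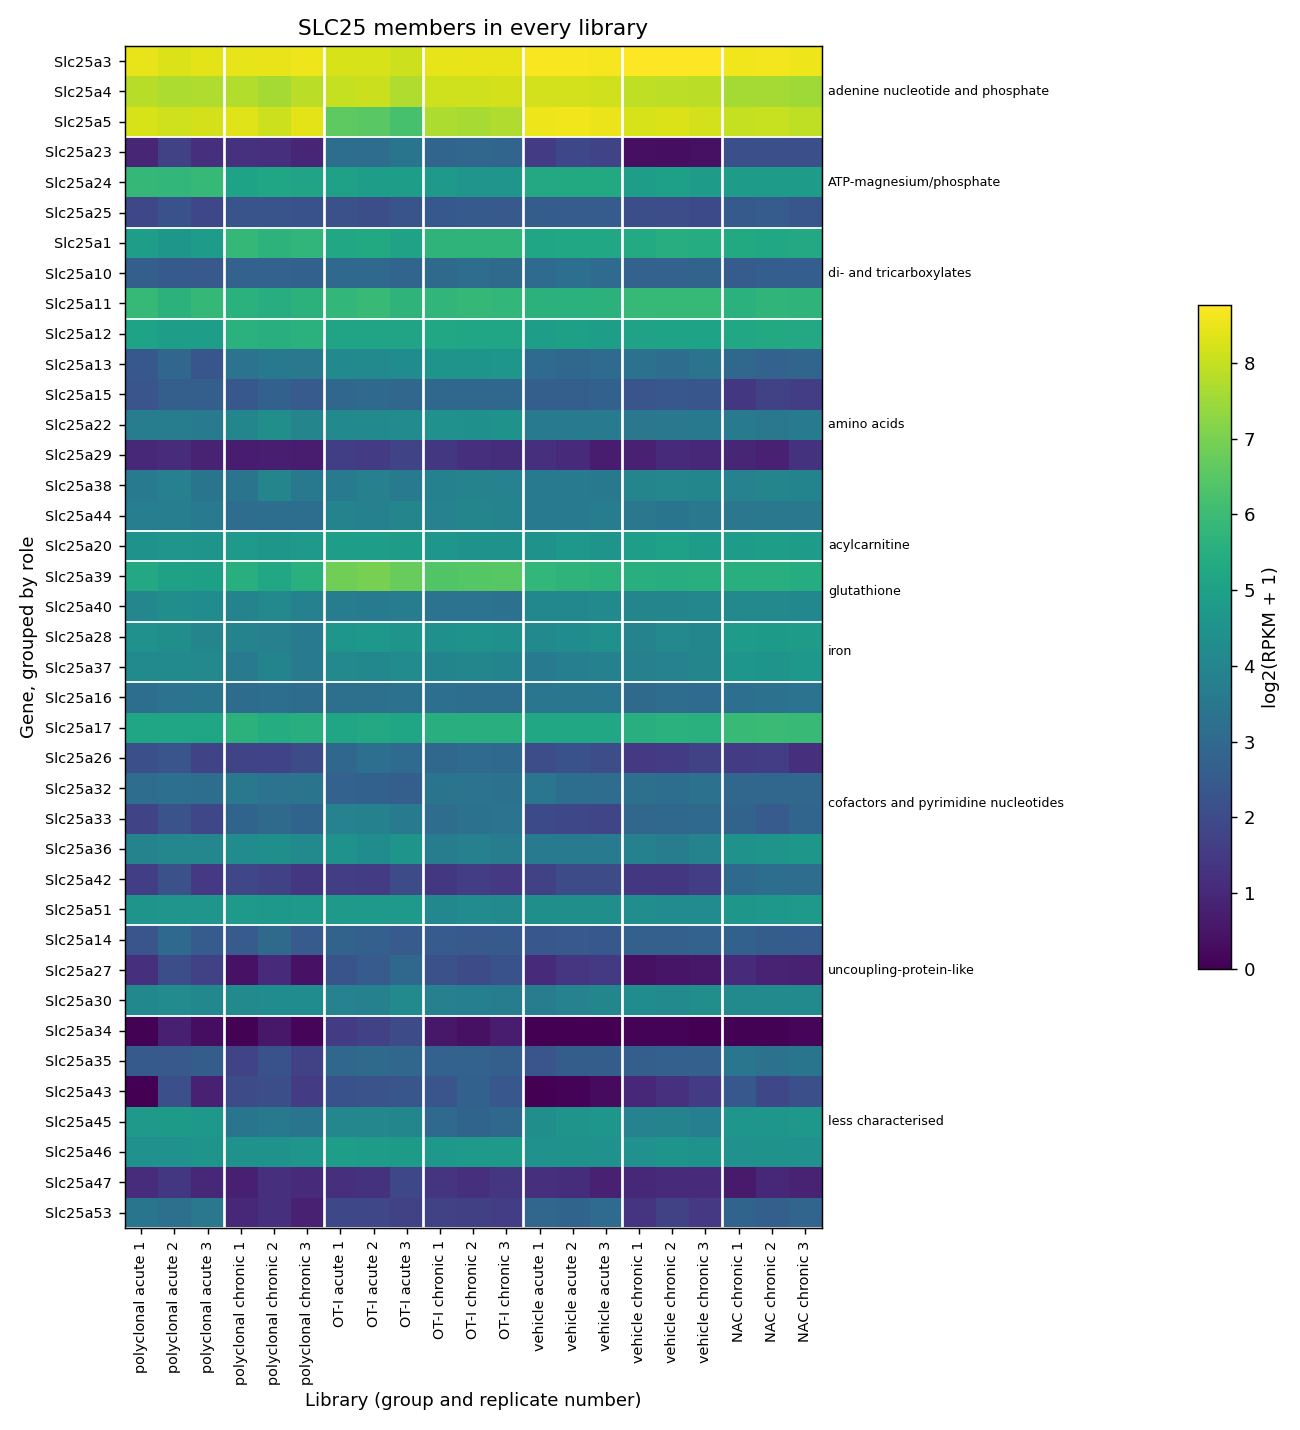
Level of 39 SLC25 members (rows, grouped by role) in each of the 21 libraries (columns), as log2(RPKM + 1) on the colour scale. The 3 genes at the top are the most abundant members in all but the 3 OT-I acute libraries, where Slc25a39 is above Slc25a5; Slc25a5 is darker in the OT-I acute libraries than elsewhere, and Slc25a39 is brightest in the OT-I libraries.

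Changes are given as the log2 change on the log2(RPKM + 1) scale, with its standard error (SE). For low genes this scale understates the change. Adjusted p-values are from 1 limma fit over all genes, and a change was called where the adjusted p was under 0.05. In polyclonal chronic against acute cells 15 members were higher and 11 lower, where 64.1% of all genes tested were called. In OT-I chronic against acute cells 9 were higher and 12 lower (58.6% of all genes called). In vehicle chronic against acute cells 11 were higher and 16 lower (58.9%). In NAC chronic against vehicle chronic cells 14 were higher and 9 lower (61.1%). The shares of members called, 65.0%, 52.5%, 67.5% and 57.5%, lay near those of all genes. The median change of members was 0.040, -0.13, -0.031 and -0.0013 in these comparisons, beside -0.083, -0.12, -0.032 and 0.082 over all genes tested. When libraries were rescaled to a common median, the members called were 13 higher and 9 lower in OT-I cells, and 12 higher and 16 lower under NAC, where this scaling moved the median of all genes from 0.082 to -0.018. The members as a group thus had no common direction in any of these comparisons. Slc25a1 and Slc25a17 were higher in all 3 chronic comparisons, as 5.38% of genes tested were, and Slc25a24 and Slc25a45 were lower in all 3, as 10.8% were. Slc25a14, Slc25a46 and Slc25a47 were called in none of them nor in either NAC comparison, as 7.68% of genes tested were. A further 11 members were called higher in one chronic comparison and lower in another (27.5%, beside 24.9% of genes tested).

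**Figure D2:**
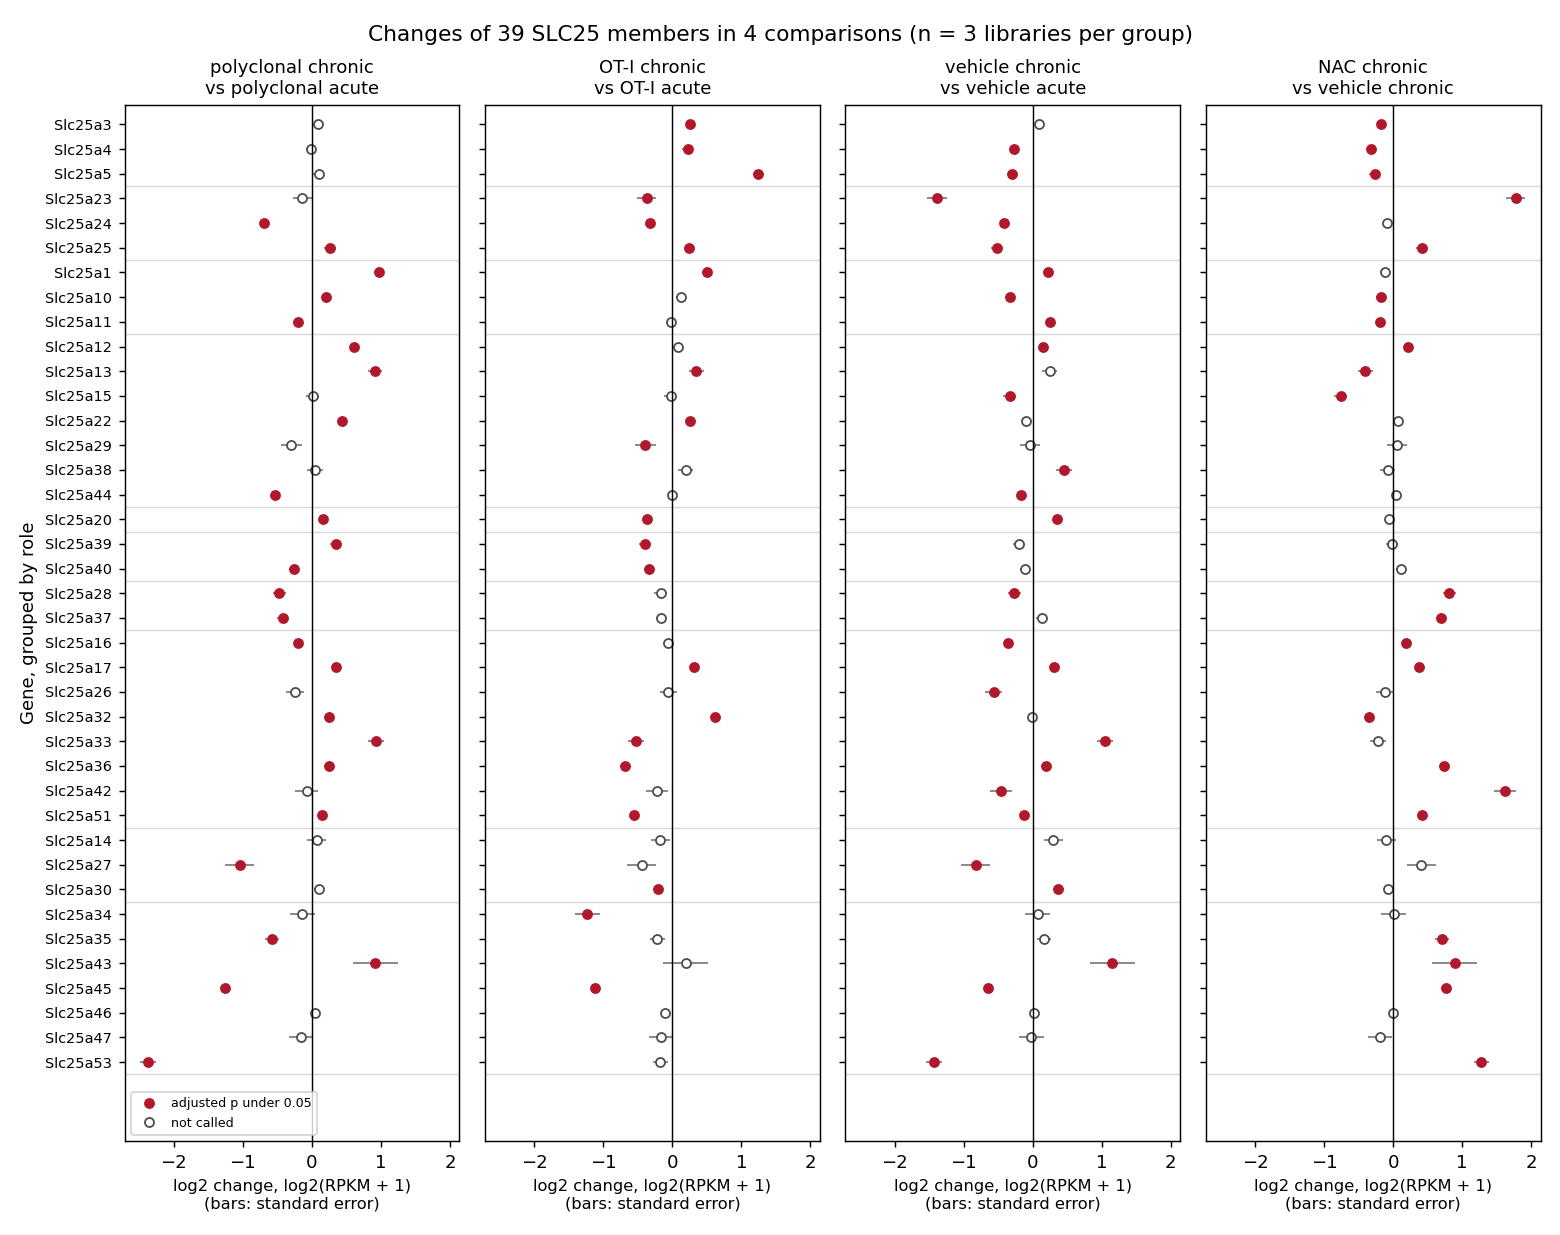
Log2 change on the log2(RPKM + 1) scale (x axis) of 39 members (y axis, grouped by role) in 4 comparisons, with bars for the standard error and filled points for adjusted p under 0.05 (limma, n = 3 libraries a group). The adenine nucleotide and phosphate carriers at the top lie right of 0 in OT-I cells and left of 0 under NAC, and Slc25a53 is far left of 0 in polyclonal and vehicle cells.

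The adenine nucleotide and phosphate carriers supply ATP synthase with ADP and phosphate and export ATP. All 3 were higher in OT-I chronic cells (58.6% of all genes called, either direction), and none was called in polyclonal cells (64.1%). In vehicle chronic cells 2 were lower (58.9%), and with NAC all 3 were lower (61.1%). Slc25a5, the translocase form typical of dividing cells, was at 94.5, 90.4 and 73.9 RPKM in OT-I acute and at 206, 198 and 211 RPKM in OT-I chronic libraries (log2 change of 1.25, SE 0.078, adjusted p = 5.47e-11). All 3 chronic libraries lay above the acute ones, and the mean rose 2.38-fold. In the other 5 groups Slc25a5 was higher than in either OT-I group, with means of 252 to 372 RPKM. Slc25a4, the form typical of muscle and heart, was at 255, 267 and 209 RPKM in OT-I acute and at 279, 277 and 291 RPKM in OT-I chronic libraries (log2 change of 0.22, SE 0.074, adjusted p = 0.015). Its groups did not overlap, but without OT-I acute 3 the change was 0.11 (adjusted p = 0.112), without OT-I chronic 3 it was 0.20 (adjusted p = 0.0549), and with only the OT-I groups in the fit it was no longer called (adjusted p = 0.0832). The ratio of Slc25a5 to Slc25a4 was 0.338 to 0.371 in OT-I acute, 0.714 to 0.740 in OT-I chronic and 1.24 to 1.5 in all other libraries. Slc25a4 was thus above Slc25a5 in the OT-I libraries only, which also held the melanocyte transcripts described above. Their part in this result was not tested. A transcribed processed pseudogene, Slc25a5-ps, is annotated, so reads could be shared with it.

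Slc25a3, which imports phosphate, was at 301, 304 and 275 RPKM in OT-I acute and at 346, 353 and 353 RPKM in OT-I chronic libraries (log2 change of 0.26, SE 0.052, adjusted p = 0.00026). In polyclonal libraries the levels of all 3 genes overlapped between acute and chronic cells. Slc25a3 was at 359, 314 and 337 RPKM in acute and 351, 354 and 372 RPKM in chronic libraries (log2 change of 0.093, SE 0.052, adjusted p = 0.126). Without polyclonal acute 1 it was called (0.14, adjusted p = 0.0265). Slc25a4 was at 226, 203 and 210.3 RPKM in acute and 213, 192 and 231 RPKM in chronic libraries (log2 change of -0.011, SE 0.074, adjusted p = 0.903), and its sign turned in some alternatives. Slc25a5 was at 302, 278 and 291 RPKM in acute and 319.7, 276 and 339 RPKM in chronic libraries (log2 change of 0.096, SE 0.078, adjusted p = 0.295). Without polyclonal chronic 2, the lowest of these libraries, the change of Slc25a5 was 0.18 and called (adjusted p = 0.045).

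In the vehicle and NAC experiment both translocases fell from acute to chronic cells and again with NAC. Slc25a4 was at 289.6, 285 and 279 RPKM in vehicle acute, 240.1, 237 and 232 RPKM in vehicle chronic and 189.6, 193 and 183 RPKM in NAC chronic libraries. The fall from acute to chronic had a log2 change of -0.27, SE 0.074, adjusted p = 0.00401, and that from vehicle to NAC a log2 change of -0.32, SE 0.074, adjusted p = 0.000756. Slc25a5 was at 373, 381 and 362 RPKM in vehicle acute, 303, 318 and 289 RPKM in vehicle chronic and 256, 258 and 242 RPKM in NAC chronic libraries. Its falls had a log2 change of -0.29, SE 0.078, adjusted p = 0.00305, and a log2 change of -0.27, SE 0.078, adjusted p = 0.00578. No libraries of neighbouring groups overlapped for either gene, and the ratio of the 2 stayed between 1.24 and 1.35. Slc25a3 was at 411, 407 and 397 RPKM in vehicle acute and 427, 428 and 435 RPKM in vehicle chronic libraries (log2 change of 0.087, SE 0.052, adjusted p = 0.16), and was called with only the compared groups in the fit (adjusted p = 0.0143). NAC chronic libraries were at 379, 386 and 376 RPKM (log2 change of -0.18, SE 0.052, adjusted p = 0.00616). With libraries rescaled to the same median, these NAC falls were larger, at -0.35, -0.50 and -0.44 for Slc25a3, Slc25a4 and Slc25a5.

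**Figure D3:**
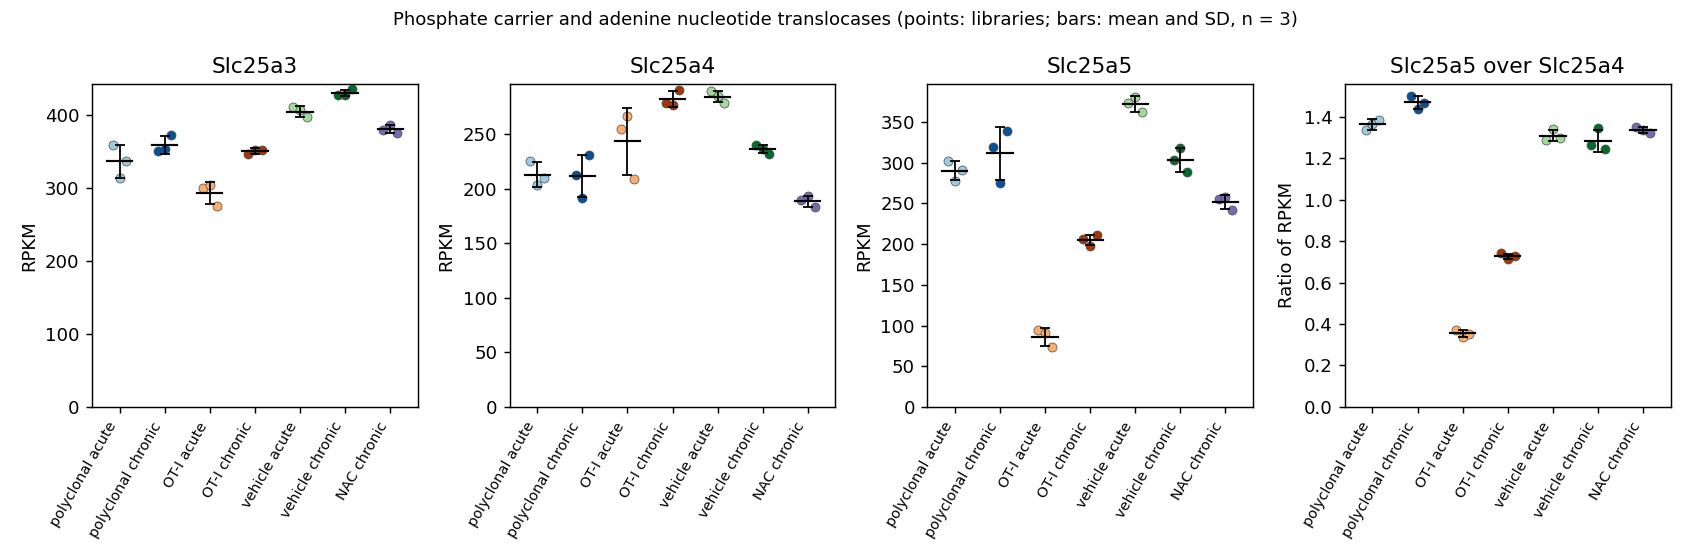
RPKM of the phosphate carrier Slc25a3 and of the translocases Slc25a4 and Slc25a5, and the ratio of Slc25a5 to Slc25a4 (y axes, from 0), in the 7 groups (x axis); points are libraries, black lines the mean and SD (n = 3). Slc25a5 is at 73.9 to 94.5 RPKM in OT-I acute libraries and at 198 RPKM or more in all others, and its ratio to Slc25a4 is below 1 only in the OT-I groups.

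Among the carboxylate carriers, the citrate carrier Slc25a1, which exports citrate to the cytosol, was higher in all 3 chronic comparisons. In polyclonal libraries Slc25a1 was at 29.3, 24 and 27.3 RPKM in acute and 56.7, 49.6 and 53.8 RPKM in chronic cells (log2 change of 0.97, SE 0.067, adjusted p = 7.99e-11), a 1.99-fold rise. In OT-I libraries Slc25a1 was at 36.7, 38.7 and 32 RPKM in acute and 50.8, 51 and 50.8 RPKM in chronic libraries (log2 change of 0.50, SE 0.067, adjusted p = 2.41e-06). In vehicle libraries Slc25a1 was at 35.4, 36.2 and 36.4 RPKM in acute and 40.5, 43 and 42.4 RPKM in chronic libraries (log2 change of 0.21, SE 0.067, adjusted p = 0.00894). Every chronic library lay above every acute library of its experiment. The rise differed between experiments: it was smaller in OT-I than in polyclonal cells (difference -0.47, adjusted p = 0.000279) and smaller in vehicle than in polyclonal cells (-0.75, adjusted p = 1.11e-06). With NAC Slc25a1 was at 39.4, 37.4 and 38.5 RPKM, and its change from vehicle chronic was not called (log2 change of -0.12, SE 0.067, adjusted p = 0.122). It was called with libraries rescaled to the same median (-0.29, adjusted p = 0.00486), with only the compared groups in the fit (adjusted p = 0.011) and with the replicate number as a block (adjusted p = 0.0465).

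Slc25a11, the oxoglutarate carrier of the malate-aspartate shuttle, moved in different directions. Slc25a11 was at 57, 48.8 and 55.9 RPKM in polyclonal acute and 48, 43.3 and 48.6 RPKM in polyclonal chronic libraries (log2 change of -0.20, SE 0.064, adjusted p = 0.00891), a fall that was not called with rescaled libraries (adjusted p = 0.085) or without polyclonal chronic 2 (adjusted p = 0.0546). In OT-I libraries Slc25a11 was at 55.2, 61.1 and 50.7 RPKM in acute and 53.3, 56.2 and 54.3 RPKM in chronic libraries, and the chronic libraries lay within the acute range (log2 change of -0.023, SE 0.064, adjusted p = 0.777). In the vehicle experiment it was higher in chronic cells, at 49, 47.6 and 48.3 RPKM in acute and 57.9, 58 and 57.1 RPKM in chronic libraries (log2 change of 0.25, SE 0.064, adjusted p = 0.00212). NAC chronic libraries were at 47.8, 52.9 and 51 RPKM (log2 change of -0.19, SE 0.064, adjusted p = 0.0163), a fall that lost its call without NAC chronic 1 (adjusted p = 0.0868) and was -0.36 with rescaled libraries. An exon of Slc25a11 overlaps one of Rnf167 on the other strand, and whether the counts kept strand is not given. The dicarboxylate carrier Slc25a10 lay at 4.40 to 8.23 RPKM over all libraries. It was higher in polyclonal chronic cells (log2 change of 0.21, SE 0.068, adjusted p = 0.0107), lower in vehicle chronic cells (log2 change of -0.33, SE 0.068, adjusted p = 0.000254) and lower again with NAC (log2 change of -0.18, SE 0.068, adjusted p = 0.028). An antisense transcript is annotated over an exon of Slc25a10.

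The aspartate-glutamate carriers Slc25a12 (aralar) and Slc25a13 (citrin) export aspartate and, with Slc25a11, complete the malate-aspartate shuttle. Both rose in polyclonal chronic cells. Slc25a12 was at 33, 29 and 29.2 RPKM in acute and 48, 44.2 and 47.6 RPKM in chronic libraries (log2 change of 0.60, SE 0.048, adjusted p = 9.11e-10). Slc25a13 was at 4.35, 6.47 and 4.03 RPKM in acute and 9.06, 10.6 and 10.5 RPKM in chronic libraries (log2 change of 0.91, SE 0.11, adjusted p = 3.06e-07), a 2.03-fold rise. In these libraries the CD4 T cell and B cell markers rose as well, and their part in the result was not tested. In OT-I libraries Slc25a13 was at 17.3, 17.2 and 18.2 RPKM in acute and 22.5, 22.3 and 23.1 RPKM in chronic cells (log2 change of 0.35, SE 0.11, adjusted p = 0.00978), above its level in every other group. Slc25a12 was at 33.9, 33.7 and 33.5 RPKM in acute and 37.1, 35.2 and 35 RPKM in chronic libraries (log2 change of 0.083, SE 0.048, adjusted p = 0.152), and was called with rescaled libraries (0.17, adjusted p = 0.0234). The rises of both were smaller in OT-I than in polyclonal cells (differences -0.52 for Slc25a12, adjusted p = 2.01e-06, and -0.57 for Slc25a13, adjusted p = 0.00384).

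In the vehicle experiment Slc25a12 was at 28.6, 30.4 and 29.3 RPKM in acute, 32.3, 32.8 and 33.3 RPKM in chronic and 36.9, 39.3 and 38.3 RPKM in NAC chronic libraries. It rose from acute to chronic (log2 change of 0.15, SE 0.048, adjusted p = 0.0106) and from vehicle to NAC (log2 change of 0.21, SE 0.048, adjusted p = 0.000811), but the NAC change was 0.042 with rescaled libraries (adjusted p = 0.604). Slc25a13 was at 7.31, 6.56 and 7.46 RPKM in acute, 8.86, 7.71 and 9.39 RPKM in chronic and 6.85, 5.73 and 6.34 RPKM in NAC chronic libraries. Its chronic change was not called (log2 change of 0.25, SE 0.11, adjusted p = 0.0558), although it was in 5 alternatives, and it fell with NAC (log2 change of -0.40, SE 0.11, adjusted p = 0.00333). The 2 carriers of the same exchange thus moved in different directions under NAC as deposited.

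Of the other amino acid carriers, Slc25a15 exchanges ornithine and citrulline for the urea cycle. It had the largest fall under NAC among members. Slc25a15 was at 5.31, 5.34 and 5.55 RPKM in vehicle acute, 3.97, 4.24 and 4.05 RPKM in vehicle chronic and 1.71, 2.31 and 2.05 RPKM in NAC chronic libraries, and no libraries overlapped. Its fall from vehicle to NAC was to 0.494 of the level (log2 change of -0.76, SE 0.095, adjusted p = 8.48e-07), after a smaller one from acute to chronic (log2 change of -0.33, SE 0.095, adjusted p = 0.00522). In polyclonal cells (0.0089, adjusted p = 0.942) and OT-I cells (-0.022, adjusted p = 0.851) it was not called. The glycine carrier Slc25a38, needed for heme synthesis, rose in vehicle chronic cells from 10.9, 11.3 and 10.6 to 14.9, 15.7 and 15.2 RPKM (log2 change of 0.45, SE 0.11, adjusted p = 0.00198). The glutamate carrier Slc25a22 rose in polyclonal (0.44) and OT-I chronic cells (0.25), and Slc25a44, which carries branched-chain amino acids, fell in polyclonal (-0.53) and vehicle chronic cells (-0.17). Slc25a29, a carrier of basic amino acids at 0.592 to 2.48 RPKM, fell in OT-I chronic cells (-0.39).

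Slc25a20 carries acylcarnitines into mitochondria for fatty acid oxidation. Slc25a20 was at 21.4, 22.7 and 22.4 RPKM in polyclonal acute and 25.3, 23.8 and 25.5 RPKM in polyclonal chronic libraries (log2 change of 0.16, SE 0.06, adjusted p = 0.0227), a rise that was lost without polyclonal acute 1 (adjusted p = 0.0764), polyclonal chronic 1 (adjusted p = 0.0654) or polyclonal chronic 3 (adjusted p = 0.0748). In OT-I libraries Slc25a20 fell, from 29, 28.9 and 27.6 to 23.3, 21 and 21.1 RPKM (log2 change of -0.37, SE 0.06, adjusted p = 2.36e-05). In vehicle libraries it rose, from 21.4, 24.8 and 22.1 to 29.1, 31.5 and 27.1 RPKM (log2 change of 0.35, SE 0.06, adjusted p = 4.25e-05). The OT-I change differed from the polyclonal one (-0.54, adjusted p = 1.99e-05) and from the vehicle one (-0.72, adjusted p = 4.04e-07). With NAC Slc25a20 was at 27.9, 29 and 27 RPKM (log2 change of -0.061, SE 0.06, adjusted p = 0.413), and a fall was called only with rescaled libraries (-0.23, adjusted p = 0.00566).

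Slc25a39 and Slc25a40 import glutathione into mitochondria and are close relatives. NAC provides cysteine for glutathione, and neither gene was called in NAC against vehicle chronic cells. Slc25a39 was at 45.7, 43 and 44.8 RPKM in vehicle chronic and 44.5, 44.9 and 42.1 RPKM in NAC chronic libraries (log2 change of -0.02, SE 0.086, adjusted p = 0.885), and the groups overlapped. Slc25a40 was at 14.8, 14.8 and 15.7 RPKM in vehicle chronic and 16.6, 16.3 and 16.2 RPKM in NAC chronic libraries (log2 change of 0.11, SE 0.068, adjusted p = 0.18). All 3 NAC libraries lay above the vehicle ones, the rise was called with only the compared groups in the fit (adjusted p = 0.0247), and the change was -0.056 with rescaled libraries. From vehicle acute, where Slc25a39 was at 54.7, 50.7 and 48.4 RPKM and Slc25a40 at 15.9, 16.2 and 17.3 RPKM, to vehicle chronic neither was called (log2 change of -0.20, SE 0.086, adjusted p = 0.0532 for Slc25a39, and log2 change of -0.12, SE 0.068, adjusted p = 0.151 for Slc25a40). The fall of Slc25a39 there was called in 5 alternatives.

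In the other experiments both genes were called. Slc25a39 was at 37.7, 31.1 and 30.5 RPKM in polyclonal acute and 44.8, 36.2 and 46.2 RPKM in polyclonal chronic libraries, which overlapped (log2 change of 0.35, SE 0.086, adjusted p = 0.00143). Slc25a40 was at 15.8, 19.1 and 18.4 RPKM in acute and 14.3, 16.3 and 13.4 RPKM in chronic libraries, again with overlap (log2 change of -0.26, SE 0.068, adjusted p = 0.00217). In OT-I libraries Slc25a39 was at 115, 125 and 104 RPKM in acute and 83.7, 86.6 and 89.1 RPKM in chronic cells, without overlap (log2 change of -0.40, SE 0.086, adjusted p = 0.000487). Its OT-I levels were above those of every library of the other groups, which reached at most 54.7 RPKM. The summed melanocyte markers, like Slc25a39, were higher in the acute group, although Mlana and Gpnmb were not called. The part of melanocyte transcripts in the result was not tested. Slc25a40 was at 11.8, 11.2 and 12.2 RPKM in acute and 9.13, 9.18 and 8.9 RPKM in chronic libraries (log2 change of -0.34, SE 0.068, adjusted p = 0.000271), the lowest group means of this gene. The OT-I change of Slc25a39 differed from the polyclonal one (-0.75, adjusted p = 2.68e-05), while that of Slc25a40 was not shown to (-0.076, adjusted p = 0.531).

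Slc25a37 and Slc25a28, mitoferrin 1 and 2, import iron for heme and iron-sulfur clusters. Both were lower in polyclonal chronic cells and both were higher under NAC. Slc25a28 was at 20.9, 19.4 and 14.7 RPKM in polyclonal acute and 14.1, 13.1 and 11.4 RPKM in polyclonal chronic libraries (log2 change of -0.47, SE 0.097, adjusted p = 0.000235), and Slc25a37 at 17.2, 16.9 and 16.6 RPKM in acute and 11.7, 14.6 and 11.1 RPKM in chronic libraries (log2 change of -0.42, SE 0.078, adjusted p = 8.52e-05). In the vehicle experiment Slc25a28 was at 17.3, 18 and 20.4 RPKM in acute, 14.1, 16.6 and 15.1 RPKM in chronic and 28.1, 26.6 and 27.9 RPKM in NAC chronic libraries. The NAC libraries were the highest of all 21 libraries for this gene (log2 change of 0.82, SE 0.097, adjusted p = 3.91e-07). Slc25a37 was at 11.6, 12.9 and 13.6 RPKM in acute, 13, 14 and 15 RPKM in chronic and 23.2, 22.5 and 24.4 RPKM in NAC chronic libraries, again the highest of all (log2 change of 0.70, SE 0.078, adjusted p = 1.64e-07). Neither was called in OT-I cells (-0.17 for Slc25a28, adjusted p = 0.147, and -0.16 for Slc25a37, adjusted p = 0.0925). Slc25a37 is abundant in the erythroid lineage. Alas2, the only erythroid marker in the table, was at most 0.459 RPKM in NAC chronic libraries. The myeloid markers summed to 8.92 to 9.61 RPKM in vehicle chronic and 30.7 to 32.2 RPKM in NAC chronic libraries. The part of either cell type in the NAC rises was not tested. Antisense transcripts are annotated over exons of Slc25a37.

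The 9 cofactor and pyrimidine nucleotide carriers had 6 members higher and 1 lower in polyclonal cells (77.8% called, beside 64.1% of all genes). Slc25a33 and Slc25a36 import pyrimidine nucleotides for mitochondrial DNA and RNA. Slc25a33 rose in polyclonal and vehicle chronic cells, and an antisense transcript is annotated over its exons. It was at 2.45, 3.79 and 2.67 RPKM in polyclonal acute and 6.13, 7.23 and 6.12 RPKM in polyclonal chronic libraries (log2 change of 0.93, SE 0.11, adjusted p = 4.93e-07). In the vehicle experiment Slc25a33 was at 2.88, 2.72 and 2.57 RPKM in acute and 6.51, 6.62 and 6.92 RPKM in chronic libraries (log2 change of 1.05, SE 0.11, adjusted p = 1.08e-07), and at 5.98, 4.69 and 6.23 RPKM with NAC (log2 change of -0.22, SE 0.11, adjusted p = 0.104). In OT-I libraries it moved the other way, from 13.8, 13.4 and 10.9 to 7.83, 8.58 and 9.07 RPKM, and the acute libraries held the highest levels of this gene (log2 change of -0.53, SE 0.11, adjusted p = 0.000561). Slc25a36 also fell in OT-I cells and rose in the other experiments. It was at 21.2, 18.1 and 22.1 RPKM in OT-I acute and 12, 13.2 and 11.8 RPKM in OT-I chronic libraries (log2 change of -0.68, SE 0.075, adjusted p = 2.04e-07), and its log2 change was 0.25 in polyclonal and 0.19 in vehicle chronic cells. With NAC Slc25a36 rose from 13.5, 12 and 14.1 to 21.8, 22.2 and 24.1 RPKM (log2 change of 0.74, SE 0.075, adjusted p = 4.51e-08).

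Slc25a42, which imports coenzyme A, was higher in NAC chronic cells than in any other group. Slc25a42 was at 1.68, 1.67 and 1.98 RPKM in vehicle chronic and 6.91, 7.98 and 7.74 RPKM in NAC chronic libraries (log2 change of 1.62, SE 0.16, adjusted p = 3.44e-08), a 4.24-fold rise. Its highest level in any of the 18 libraries without NAC was 3.48 RPKM. Slc25a17, a peroxisomal carrier of coenzyme A, FAD and NAD, rose in polyclonal (0.36), OT-I (0.31) and vehicle chronic cells (0.31), and again with NAC (0.37). Its group means were 37 RPKM in vehicle acute, 46.2 RPKM in vehicle chronic and 60.1 RPKM in NAC chronic libraries. The NAD carrier Slc25a51 fell in OT-I chronic cells from 25.6, 25.6 and 25.9 to 16.2, 17.8 and 17.5 RPKM (log2 change of -0.56, SE 0.042, adjusted p = 8.28e-10), and rose with NAC from 18.5, 17.7 and 17.6 to 23.8, 24.4 and 25 RPKM (log2 change of 0.42, SE 0.042, adjusted p = 3.06e-08).

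The folate and FAD carrier Slc25a32 rose in OT-I chronic cells from 5.79, 5.55 and 5.31 to 9.25, 9.12 and 8.79 RPKM (log2 change of 0.62, SE 0.069, adjusted p = 2.18e-07), and fell with NAC from 8.47, 8.02 and 8.93 to 6.47, 6.45 and 6.39 RPKM (log2 change of -0.35, SE 0.069, adjusted p = 0.0002). The S-adenosylmethionine carrier Slc25a26 fell in vehicle chronic cells (-0.57, adjusted p = 0.000575) and was not called with NAC. Its exon overlaps one of Lrig1 on the other strand. Slc25a16, linked to coenzyme A, fell in polyclonal (-0.20) and vehicle chronic cells (-0.36) and rose with NAC (0.19). That rise was smaller than the NAC rise of Slc25a12 (0.21), which lost its call with rescaled libraries (0.042, adjusted p = 0.604). Over the whole family 14 members were called higher with NAC, and 12 with rescaled libraries. Small NAC rises therefore depend on the scaling. With NAC the group had 5 members higher and 2 lower (77.8% called, beside 61.1% of all genes), and from vehicle acute to NAC chronic all 9 were called, 6 higher and 3 lower, where 66.3% of all genes were called.

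The ATP-magnesium/phosphate carriers adjust the adenine nucleotide content of the matrix and bind calcium. Slc25a24 was the most abundant of them and fell in all 3 chronic comparisons. It was at 55.7, 54.4 and 57.3 RPKM in polyclonal acute and 32.7, 35.2 and 34.1 RPKM in polyclonal chronic libraries (log2 change of -0.70, SE 0.043, adjusted p = 1.55e-11), and fell by 0.33 in OT-I and by 0.41 in vehicle chronic cells on the log2 scale. The polyclonal fall was larger than both others (differences 0.37, adjusted p = 3.23e-05, and 0.29, adjusted p = 0.000546). Under NAC Slc25a24 was not called (-0.089, adjusted p = 0.0858). Slc25a23 was low in vehicle chronic cells and higher with NAC. It was at 1.98, 2.73 and 2.45 RPKM in vehicle acute, 0.298, 0.254 and 0.318 RPKM in vehicle chronic and 3.4, 3.4 and 3.42 RPKM in NAC chronic libraries, and no libraries overlapped. The fall had a log2 change of -1.39, SE 0.14, adjusted p = 4.25e-08, and the rise a log2 change of 1.77, SE 0.14, adjusted p = 1.3e-09, which is an 11.7-fold difference of mean RPKM. With a pseudocount of 0.1 these values were -2.67 and 3.17. In polyclonal libraries Slc25a23 was at 0.905, 2.22 and 1.25 RPKM in acute and 1.35, 1.27 and 0.943 RPKM in chronic cells and was not called. Its highest levels were in the OT-I libraries, at 7.98, 7.71 and 9.72 RPKM in acute and 6.25, 6.39 and 6.21 RPKM in chronic cells. The OT-I fall was called (log2 change of -0.37, SE 0.14, adjusted p = 0.0301). These libraries also held the melanocyte transcripts, whose part was not tested. Slc25a23 was higher with NAC than in vehicle acute cells (0.39, adjusted p = 0.0219). Within the vehicle and NAC experiment Slc25a25 was also lowest in vehicle chronic cells. It was at 4.98, 4.9 and 4.85 RPKM in vehicle acute, 3.28, 3.2 and 2.91 RPKM in vehicle chronic and 4.64, 4.81 and 4.12 RPKM in NAC chronic libraries (changes -0.52 and 0.42). All NAC libraries still lay below the vehicle acute ones. Slc25a25 rose in polyclonal (0.26) and OT-I chronic cells (0.25). Exons of Slc25a23 overlap an antisense transcript and those of Slc25a25 overlap Naif1.

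The uncoupling-protein-like carriers Slc25a14, Slc25a27 and Slc25a30 are named for their likeness to UCP1. Slc25a27 fell in polyclonal chronic cells from 1.31, 3.34 and 2.34 to 0.345, 1.11 and 0.344 RPKM (log2 change of -1.05, SE 0.21, adjusted p = 0.000198), and was -1.88 with a pseudocount of 0.1. In vehicle cells it fell from 1.08, 1.62 and 1.84 to 0.327, 0.424 and 0.486 RPKM (log2 change of -0.82, SE 0.21, adjusted p = 0.00211), or by 1.64 with that pseudocount. In both polyclonal groups the library numbered 2, in which low genes were raised, was the highest for this gene. Slc25a30 fell in OT-I (-0.21) and rose in vehicle chronic cells (0.37). Slc25a14 lay at 3.97 to 7.13 RPKM in all libraries, and was called in none of these comparisons.

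Members whose substrate is less settled included Slc25a53, with the largest polyclonal change of the family. Slc25a53 was at 9.68, 8.38 and 10.3 RPKM in polyclonal acute and 0.997, 1.35 and 0.729 RPKM in polyclonal chronic libraries (log2 change of -2.38, SE 0.11, adjusted p = 2.26e-13), so that the chronic mean was 0.108 of the acute one. Cd8a fell between these groups too, while CD4 T cell and B cell markers rose. The NK cell markers summed to 21.2 to 24.1 RPKM in polyclonal acute and 0.747 to 2.44 RPKM in polyclonal chronic libraries. For the myeloid markers the sums were 17.1 to 24.1 and 4.81 to 8.90 RPKM. The part of these markers in the polyclonal fall was not tested. In the vehicle experiment Slc25a53 was at 6.4, 6.06 and 7.35 RPKM in acute and 1.52, 2.21 and 1.77 RPKM in chronic libraries (log2 change of -1.43, SE 0.11, adjusted p = 9.88e-10). With NAC it was at 6.05, 5.3 and 6.18 RPKM (log2 change of 1.28, SE 0.11, adjusted p = 6.69e-09). The NAC libraries overlapped the vehicle acute range, and the change between these groups was not called (-0.15, adjusted p = 0.263). In OT-I libraries it was at 2.71, 2.66 and 2.25 RPKM in acute and 2.2, 2.17 and 2.04 RPKM in chronic libraries, and was not called (log2 change of -0.17, SE 0.11, adjusted p = 0.207). The polyclonal and OT-I changes differed more for Slc25a53 than for any other member (2.21, adjusted p = 4.22e-10). The annotated gene Slc25a53 lies over Zcchc18 on the other strand, without shared exons.

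Slc25a45 fell in all 3 chronic comparisons. It was at 25, 26.3 and 24.4 RPKM in polyclonal acute and 9.72, 10.6 and 9.54 RPKM in polyclonal chronic libraries (log2 change of -1.26, SE 0.063, adjusted p = 4.98e-13). As for Slc25a53, the part of the cell type markers in this polyclonal fall was not tested. In OT-I libraries Slc25a45 was at 15.6, 15.7 and 15.2 RPKM in acute and 6.97, 6.06 and 6.77 RPKM in chronic libraries (log2 change of -1.12, SE 0.063, adjusted p = 1.25e-11), and in vehicle libraries at 19.6, 22.3 and 23.4 RPKM in acute and 13.9, 14.1 and 12.7 RPKM in chronic libraries (log2 change of -0.64, SE 0.063, adjusted p = 2.59e-08). With NAC it was at 23.3, 23.2 and 24.6 RPKM (log2 change of 0.76, SE 0.063, adjusted p = 2.3e-09), and the change from vehicle acute was not called (0.12, adjusted p = 0.0993). Slc25a45 and Slc25a53 were thus both lower in vehicle chronic cells and both at NAC levels whose change from vehicle acute was not called. These comparisons share the vehicle chronic or the NAC libraries. Some T cell marker genes moved with the same groups. The mean of Cd4 was 13.9 RPKM in vehicle acute, 2.39 RPKM in vehicle chronic and 47.9 RPKM in NAC chronic libraries. That of Cd8b1, a chain of the CD8 coreceptor, was 179, 88.8 and 184 RPKM. Of the 5 CD8 T cell markers only Cd8b1 was lower in vehicle chronic cells, while 3 were higher (Cd8a, Cd3d and Cd3g). With NAC 2 of the 5 were higher (Cd8b1 and Cd3e) and none lower. The part of these markers in the results under NAC was not tested.

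Slc25a43 rose in vehicle chronic cells, from 0, 0.0543 and 0.185 to 1.00, 1.36 and 1.89 RPKM (log2 change of 1.15, SE 0.33, adjusted p = 0.00473), and the change was 3.17 with a pseudocount of 0.1. With NAC it was at 4.34, 2.76 and 3.36 RPKM (log2 change of 0.89, SE 0.33, adjusted p = 0.0228), a call lost with a pseudocount of 0.1 (adjusted p = 0.154) or without vehicle chronic 1 (adjusted p = 0.0868), vehicle chronic 2 (adjusted p = 0.0521) or NAC chronic 1 (adjusted p = 0.088). In polyclonal acute libraries Slc25a43 was at 0, 3.43 and 0.744 RPKM, with the high value in the library whose low genes were raised. Slc25a34 was at 1.98, 2.34 and 3.04 RPKM in OT-I acute and 0.485, 0.31 and 0.584 RPKM in OT-I chronic libraries (log2 change of -1.23, SE 0.18, adjusted p = 7.43e-06), and at most 0.697 RPKM in all other libraries, with 0 in the vehicle acute ones. Slc25a34 passed the filter through the OT-I acute libraries alone, so this fall and its p-value follow in part from the filter. The sum of the melanocyte markers was highest in the same OT-I acute group, and the part of melanocyte transcripts in the result was not tested. Slc25a35 fell in polyclonal chronic cells (-0.58, adjusted p = 5.29e-05) and rose with NAC (0.71, adjusted p = 5.09e-06). It shares exon sequence with Rangrf on the other strand. Slc25a46, a protein of the outer membrane linked to mitochondrial shape, lay at group means of 21.1 to 27.4 RPKM, and Slc25a47 lay at 0.546 to 2.75 RPKM.

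**Figure D4:**
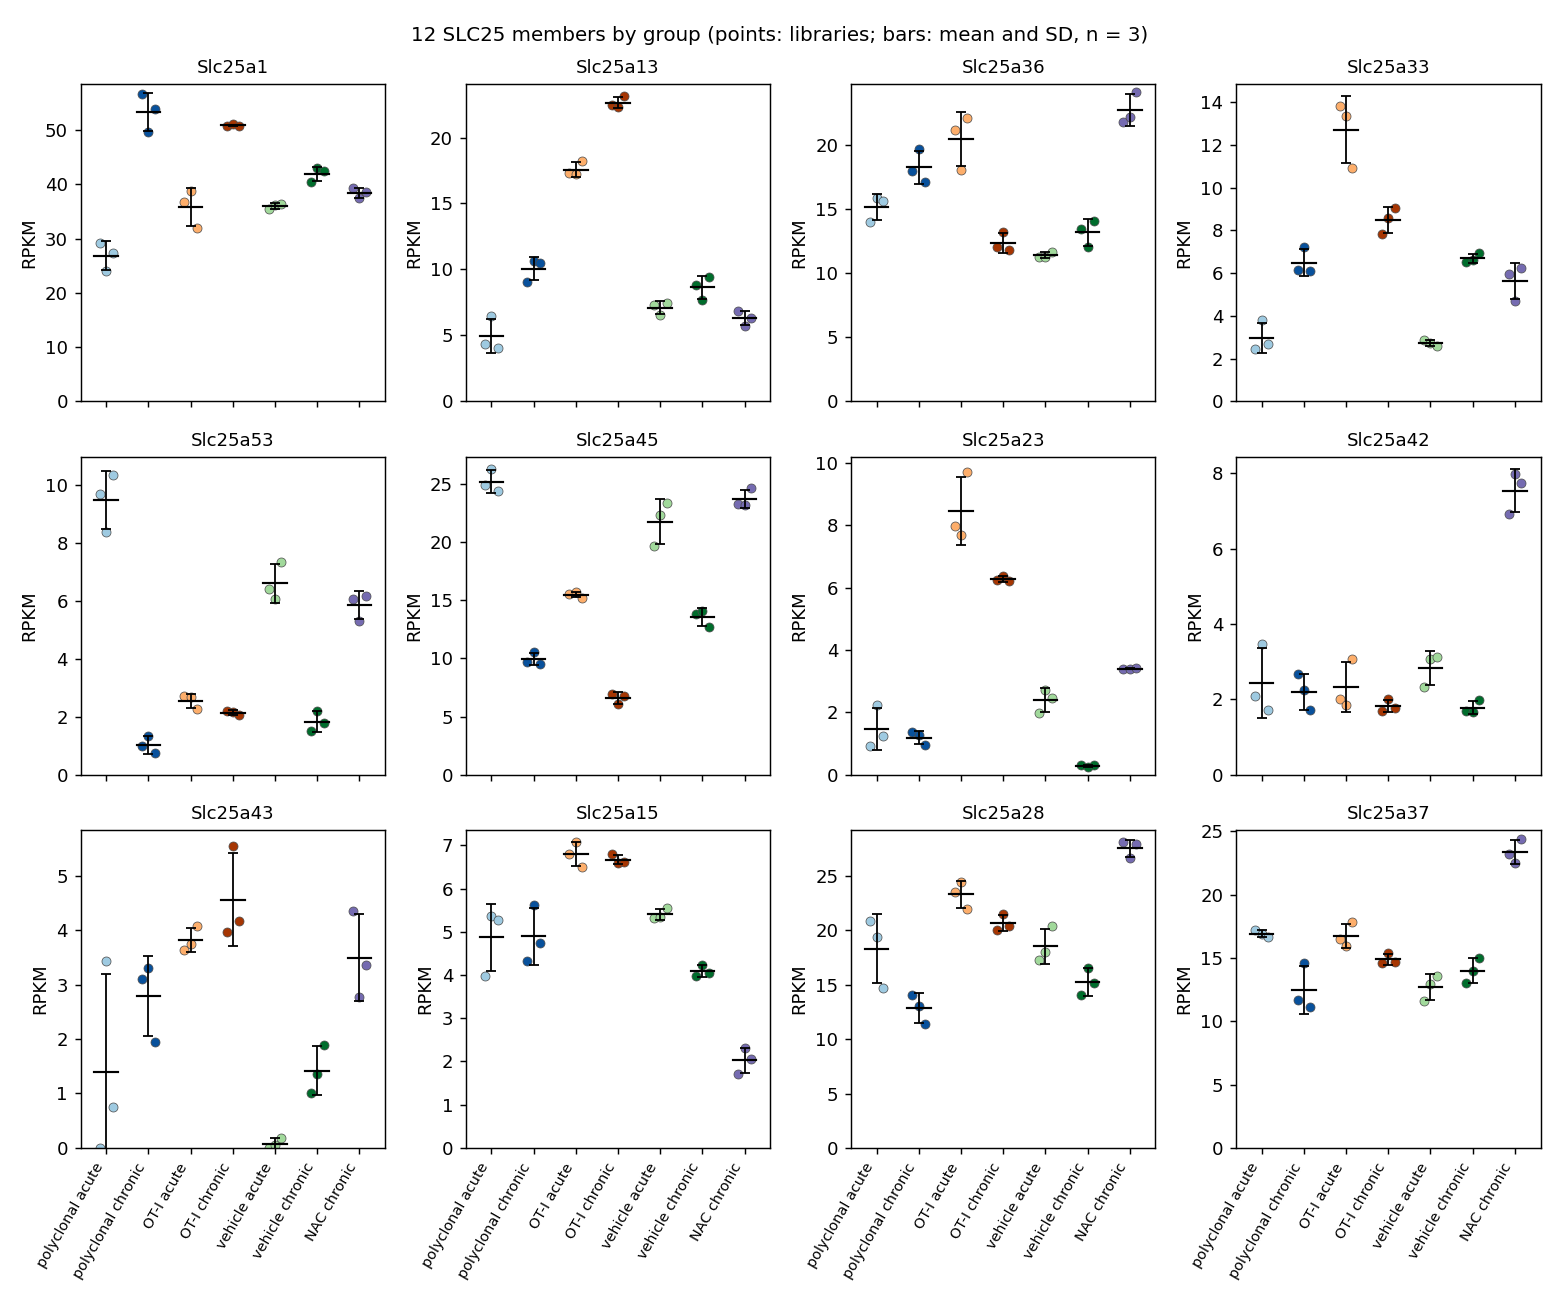
RPKM (y axes, from 0) of 12 members in the 7 groups (x axis); points are libraries, black lines the mean and SD (n = 3). Slc25a33 is higher in chronic than in acute cells of the polyclonal and vehicle experiments, Slc25a53 and Slc25a45 are lower, and Slc25a23, Slc25a42, Slc25a28 and Slc25a37 are raised in NAC chronic cells against vehicle chronic cells.

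Whether the chronic change depended on the experiment was tested as a difference of changes in the same fit. Between OT-I and polyclonal cells 18 members differed, 7 with a higher and 11 with a lower OT-I change, where 55.8% of all genes were called. Between vehicle and polyclonal cells 22 differed, 9 higher and 13 lower (52.4% of all genes). Between OT-I and vehicle cells 23 differed, 11 higher and 12 lower (58.5% of all genes), or 15 and 9 with rescaled libraries. The OT-I and vehicle changes differed for Slc25a5 (1.54, adjusted p = 3.16e-10) and Slc25a33 (-1.57, adjusted p = 6.06e-08). Which members differed most depended on the pseudocount: with 0.1 in place of 1 the difference was 2.25 for Slc25a23 and -2.79 for Slc25a34, against 1.01 and -1.31. Vehicle and polyclonal cells had the same stimulus by their labels, and differed for Slc25a23 (-1.25, adjusted p = 2.56e-05, and -2.46 with a pseudocount of 0.1) and Slc25a53 (0.95, adjusted p = 5.05e-05). The polyclonal chronic libraries carried CD4 T cell and B cell markers, as given above, while the CD4 T cell markers of the vehicle chronic ones summed to 2.66 to 3.01 RPKM, and the part of this in the differences was not tested. The 3 experiments have no group in common, so experiment and any batch cannot be told apart.

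NAC chronic cells were also set against vehicle acute cells. Here 15 members were higher and 10 lower (66.3% of all genes called), or 11 and 18 with rescaled libraries. Members at levels above both vehicle groups included Slc25a42 (1.16 against vehicle acute), Slc25a36 (0.93), Slc25a35 (0.88), Slc25a37 (0.83) and Slc25a17 (0.69). Slc25a15 (-1.09), Slc25a4 (-0.59) and Slc25a5 (-0.56) were at levels below both. Each of these was called. The comparison shares its libraries with those of vehicle chronic and NAC cells above, and the values are set beside them as a description.

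Genes that work beside the family were counted from lists, to be read against the shares of all genes called, 64.1% in polyclonal, 58.6% in OT-I and 58.9% in vehicle chronic cells and 61.1% with NAC. Of the 3 carrier family genes with other symbols, Ucp2, Mtch1 and Mtch2, 1 was higher and 1 lower in polyclonal, 3 higher in OT-I, 1 higher and 2 lower in vehicle chronic cells, and 2 lower with NAC. Mtch1 fell in polyclonal (-0.40, adjusted p = 4.1e-06) and vehicle chronic cells (-0.52, adjusted p = 1.28e-07). Ucp2, an abundant uncoupling protein relative of T cells, was higher in chronic cells of all experiments. Its mean was 430.4 and 673 RPKM in polyclonal acute and chronic libraries (log2 change 0.64, adjusted p = 3.28e-09), 176 and 312 RPKM in OT-I (0.82, adjusted p = 1.95e-10), and 421 and 848 RPKM in vehicle libraries (1.01, adjusted p = 3.15e-12). With NAC it was at 474 RPKM (-0.84, adjusted p = 8.8e-11). Per length, the mean of Ucp2 was above that of Slc25a3 in the polyclonal, vehicle and NAC groups and below it in both OT-I groups. Of the 10 genes for import of carrier proteins, 6 were higher and 1 lower in polyclonal chronic cells (70% called), 3 and 1 in OT-I (40%), 1 and 5 in vehicle (60%), and 1 and 4 with NAC (50%). Timm8a1, a small chaperone of the intermembrane space, rose in polyclonal chronic cells from 4.49 to 7.26 RPKM (0.59, adjusted p = 0.000106), but fell from 10 to 6.49 RPKM in vehicle chronic cells (-0.55, adjusted p = 0.000274) and to 2.74 RPKM with NAC (-1.0, adjusted p = 1.81e-07).

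A list of 8 genes held those linked to the calcium uniporter complex and also Letm1, which is not a subunit of it. Of these 8 genes, 3 were higher and 3 lower in polyclonal, 2 and 2 in OT-I, 3 and 2 in vehicle chronic cells, and 5 and 0 with NAC, or 75%, 50%, 62.5% and 62.5% called. Letm1 was among the 3 lower in polyclonal and the 2 higher in OT-I cells. The pore gene Mcu rose from 9.38 to 16 RPKM in polyclonal (0.71, adjusted p = 1.43e-08) and from 6.68 to 14 RPKM in vehicle chronic cells (0.97, adjusted p = 1.57e-10). The 3 outer membrane channel genes had 1 higher in polyclonal, 2 higher and 1 lower in OT-I, 3 lower in vehicle chronic cells and 1 lower with NAC, or 33.3%, 100%, 100% and 33.3% called. Vdac1 fell from 152 to 95.2 RPKM in vehicle chronic cells (-0.67, adjusted p = 1.31e-09). Of the 7 pyruvate carrier and sideroflexin genes, 3 were higher and 3 lower in polyclonal, 1 and 2 in OT-I, 0 and 2 in vehicle chronic cells, and 2 and 1 with NAC, or 85.7%, 42.9%, 28.6% and 42.9% called. The serine carrier Sfxn1 rose in OT-I chronic cells from 37 to 53.1 RPKM (0.51, adjusted p = 6.08e-08) and fell in vehicle chronic cells from 46.1 to 32.4 RPKM (-0.50, adjusted p = 5.62e-08). Of the 4 mitochondrial ABC transporters, 0 were higher and 3 lower in polyclonal, 1 and 0 in OT-I, 0 and 2 in vehicle chronic cells, and 1 and 1 with NAC, or 75%, 25%, 50% and 50% called.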

How the data were processed

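RNA-seq of 21 libraries in 7 groups was read from 1 table of RPKM values, which the authors deposited for 13202 genes. Per the submitters' processing notes, bcl2fastq 2.17, HTSeq and edgeR were used with genome build mm9; the sources used here give no aligner, annotation or strand setting. The members and gene lists were chosen with earlier results of these data known. RPKM values were tested as log2(RPKM + 1) with limma 3.58.1 in R 4.3.3 (1 mean per group, trended variance, 14 residual degrees of freedom, Benjamini-Hochberg adjustment over 12630 genes with 1 RPKM or more in at least 3 libraries). The test was tried on simulated data. Genes described in full were Slc25a1, a3, a4, a5, a11, a12, a13, a20, a39 and a40, the 4 largest called rises and falls of each comparison, and members with differing changes between experiments; some genes are not reported here, and others named for their role were chosen after their values were seen. Whole reads were recovered from the RPKM steps (100% of genes, within 0.001 reads), which gave the depths, and limma-voom on them was an alternative. Others were the pseudocount, the filter, a common median, the compared groups alone, leaving out libraries and a replicate block. Deviations of same-numbered polyclonal libraries correlated at 0.446, 0.629 and 0.168, but polyclonal acute 1 did not correlate best with the chronic library of its number. Both polyclonal libraries numbered 2 had raised low genes. In the other experiments same-numbered libraries correlated at -0.167 to 0.0767. Replicate numbers were thus not shown to pair libraries. Promoters and gene overlaps came from GRCm38.p6 annotation, so no coordinates of the mm9 counting are printed.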

Additional observations from a re-analysis of the deposited data

Results flagged for a closer look

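A chronic change that differed between experiments, by the difference of changes in the same limma fit, marked the results here, from among the highest and lowest called for each pair of experiments. All values are log2 changes of the chronic against the acute group in one experiment minus those in another, on the log2(RPKM + 1) scale with 3 libraries a group.

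OT-I minus polyclonal values were 2.21 for Slc25a53 (adjusted p = 4.22e-10), 1.15 for the translocase Slc25a5 (adjusted p = 2.58e-08) and 0.53 for the amino acid carrier Slc25a44 (adjusted p = 5.56e-06). They were -1.45 for the pyrimidine nucleotide carrier Slc25a33 (adjusted p = 1.98e-07) and -1.09 for Slc25a34 (adjusted p = 0.0011). The Slc25a34 value was not called with a pseudocount of 0.1 (-1.72, adjusted p = 0.107) or with voom on recovered reads (-1.94, adjusted p = 0.157). Slc25a34 passed the filter through the OT-I acute libraries alone, so its value and p-value follow in part from the filter.

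Vehicle minus polyclonal values were 0.95 for Slc25a53 (adjusted p = 5.05e-05), 0.75 for Slc25a35 (adjusted p = 0.000213) and 0.62 for Slc25a45 (adjusted p = 7.62e-06). They were -1.25 for Slc25a23 (adjusted p = 2.56e-05), -0.78 for Slc25a25 (adjusted p = 1.16e-05) and -0.75 for the citrate carrier Slc25a1 (adjusted p = 1.11e-06). The Slc25a23 value was -2.46 with a pseudocount of 0.1 and -2.92 with voom, and that of Slc25a53 was 1.53 with voom.

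OT-I minus vehicle values were 1.54 for Slc25a5 (adjusted p = 3.16e-10), 1.26 for Slc25a53 (adjusted p = 1.32e-06) and 1.01 for Slc25a23 (adjusted p = 0.000211). They were -1.57 for Slc25a33 (adjusted p = 6.06e-08), -1.31 for Slc25a34 (adjusted p = 0.000184) and -0.87 for Slc25a36 (adjusted p = 6.99e-07). With a pseudocount of 0.1 and with voom, Slc25a23 was at 2.25 and 2.59, and Slc25a34 at -2.79 and -4.7. The limit that the filter sets on Slc25a34 holds here too. The melanocyte, B cell and NK cell markers in the OT-I libraries and the CD4 T cell and B cell markers in the polyclonal chronic libraries moved with these groups, and their part was not tested.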

How the results depend on the processing

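The number of members called, both directions together, moved by less than 1.5 times under the alternatives run. With a common median the members called lower went from 9 to 16 for NAC against vehicle chronic cells and from 10 to 18 against vehicle acute cells. With the replicate block the counts were 26 in polyclonal, 25 in OT-I and 30 in vehicle chronic cells, 25 for NAC against vehicle chronic and 26 against vehicle acute cells, and 21, 22 and 27 for the differences of OT-I and vehicle from polyclonal cells and of OT-I from vehicle cells. Among values of named members, 564 of 582 kept their direction and their side of the threshold when 1 library was left out, and 573 of 599 did under the other alternatives. The sign turned for 4 small changes that were not called. Slc25a4 in polyclonal cells was 0.029 with a common median, 0.031 without polyclonal acute 1, 0.058 without polyclonal chronic 2 and 0.025 without the 3 libraries with raised low genes, an alternative chosen after seeing the data; leaving out 1 library gave -0.075 to 0.058. Slc25a11 in OT-I cells was 0.066 with a common median and 0.045 without OT-I acute 2, with a range of -0.087 to 0.045 over libraries left out. Under NAC, Slc25a39 was 0.0073 without NAC chronic 3 (range -0.044 to 0.0073), and Slc25a40 was -0.056 with a common median. The cause was not tested. Low members are the least precise: with a pseudocount of 0.1, Slc25a34 in OT-I cells was -2.20.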
